A study of Mus musculus with 7 samples.

Results

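Heat shock proteins and chaperonins are the molecular chaperones that fold new proteins and hold or refold damaged ones. The genes described here are 40 of the 24341 genes in the deposited table, chosen by name: the HSP90, HSP70, HSP110 and J protein genes with their co-chaperones, the TRiC chaperonin, the chaperones of mitochondria and endoplasmic reticulum, a small heat shock protein and the transcription factor Hsf1. The choice was made with earlier results of these data known. The RNA came from FACS-sorted B-cell precursor (BCP) cells of the spleen of Eμ-Ret mice, transgene hemizygotes on a BALB/c background in both groups. The labels state sorting for both groups, but the gate is described for preleukemic cells only, most leukemic spleens used for culture in the study were not enriched, and the gate of the leukemic RNA samples is not given in the sources used here. The transgene is an oncogenic Ret fusion gene driven by the IgH enhancer, so that its expression is directed to the B lineage. The 4 preleukemic samples were from young, healthy mice at the preleukemia stage and the 3 leukemic samples from older, moribund mice with overt disease, so age and disease cannot be told apart. Exact ages, the number of mice behind each sample and the karyotypes of these samples are not given in the sources used here, and p-values therefore measure the spread between these samples, which may be partly technical.

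HSP70 proteins bind short hydrophobic stretches of unfolded protein in a cycle driven by ATP. J proteins deliver the substrate and start hydrolysis, and exchange factors such as the HSP110 and BAG proteins release it. HSP90 acts later, on kinases, receptors and other clients, and TRiC encloses actin, tubulin and other proteins in a ring-shaped chamber. Under protein stress HSF1 binds heat shock elements, which are inverted repeats of the bases GAA, and raises the transcription of the inducible chaperone genes, while the unfolded protein response does the same for chaperones of the endoplasmic reticulum. Extra chromosomes are known to burden this system with surplus protein, and the study concerns Eμ-Ret leukemias that gain whole chromosomes. The study also karyotyped preleukemic cells and found extra chromosomes in most of those samples. The groups can therefore not be taken as cells with and without such gains. The question here was how the chaperone genes of leukemic BCP cells compared with those of preleukemic BCP cells.

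Values are FPKM, that is, fragments scaled to transcript length and sequencing depth. The samples held between 13400000 and 16100000 fragments, as read from the steps of low values, which at 1 FPKM and 1500 bases gives a counting error of 20.3 to 22.3%. Groups were compared with limma on log2(FPKM + 1), adjusted over the 10541 genes with summed FPKM of 10 or more, and a gene was called at an adjusted p under 0.05. Markers of other cells were examined as well. Of 16 red cell precursor genes tested, 16 were called higher in leukemic samples, their FPKM summing to 5797, 26661 and 13027 in leukemic replicates 1 to 3 and to 424 to 2851 in preleukemic samples, and of the list only Hbb-bs was at the floor of the table in all samples. Macrophage genes were called higher for 8 of 12 (sums 171 to 396 against 40.6 to 93.7), neutrophil genes for 5 of 12 (1429 to 1772 against 150 to 874), platelet genes for 4 of 5 (14.4 to 53.4 against 2.53 to 3.78), plasma cell genes for 1 of 5 (447 to 952 against 783 to 1022), and T and NK cell genes for 0 of 10 by limma, with 3 at an unadjusted p under 0.05. B-cell precursor genes were called lower for 4 of 18 (4507 to 7326 against 8901 to 11129), and Enpep, which encodes the BP-1 antigen that marks these cells, was at 19.1, 102 and 77.2 FPKM in leukemic and at 134 to 210 FPKM in preleukemic samples.

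Promoter windows show which of these genes carry the response elements named above. RefSeq windows of 250 bases before to 50 after each start, on GRCm38.p6 of the C57BL/6J reference, were used for 33 of the 40 genes. The heat shock element was searched as GAANNTTC or TTCNNGAA, each of which is its own reverse complement, so that both strands are covered. It was found for 14 of the 33 genes (42.4%) and in a window of 16.97% of all 27025 genes with windows. A longer form, in which another unit follows at the same spacing, was found for Dnajb6, Hspd1, Hspe1 and Hsph1 (12.1%, against 0.662% of all genes), and every such match also holds the shorter form. The endoplasmic reticulum stress element, CCAAT and CCACG separated by 9 bases on either strand, was found for Hspa5 and Hsp90b1 (6.06%, against 0.137%). The 4 windows printed show these elements in capitals, for the co-chaperonin Hspe1 at chr1:55087898-55088197 (plus strand), the HSP110 gene Hsph1 at chr5:149636287-149636586 (minus strand), the endoplasmic reticulum HSP70 gene Hspa5 at chr2:34771840-34772139 (plus strand) and the endoplasmic reticulum HSP90 gene Hsp90b1 at chr10:86705395-86705694 (minus strand).
Hspe1: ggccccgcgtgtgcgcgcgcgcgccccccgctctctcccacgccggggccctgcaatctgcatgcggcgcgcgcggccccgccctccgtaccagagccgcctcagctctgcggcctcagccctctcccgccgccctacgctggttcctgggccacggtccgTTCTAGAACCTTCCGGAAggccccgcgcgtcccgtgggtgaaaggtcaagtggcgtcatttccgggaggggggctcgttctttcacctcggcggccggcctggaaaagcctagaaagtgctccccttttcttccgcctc
Hsph1: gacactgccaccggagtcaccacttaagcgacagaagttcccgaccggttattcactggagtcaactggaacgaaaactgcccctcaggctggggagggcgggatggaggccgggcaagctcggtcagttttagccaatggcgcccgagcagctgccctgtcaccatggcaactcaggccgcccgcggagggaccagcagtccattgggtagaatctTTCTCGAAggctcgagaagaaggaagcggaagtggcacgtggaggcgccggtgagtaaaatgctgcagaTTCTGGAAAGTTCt
Hspa5: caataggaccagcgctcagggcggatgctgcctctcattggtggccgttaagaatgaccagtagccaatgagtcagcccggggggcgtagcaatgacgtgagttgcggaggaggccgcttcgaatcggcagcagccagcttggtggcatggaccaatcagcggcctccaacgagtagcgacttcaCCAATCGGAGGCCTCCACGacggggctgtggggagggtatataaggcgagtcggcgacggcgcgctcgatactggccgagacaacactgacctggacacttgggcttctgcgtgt
Hsp90b1: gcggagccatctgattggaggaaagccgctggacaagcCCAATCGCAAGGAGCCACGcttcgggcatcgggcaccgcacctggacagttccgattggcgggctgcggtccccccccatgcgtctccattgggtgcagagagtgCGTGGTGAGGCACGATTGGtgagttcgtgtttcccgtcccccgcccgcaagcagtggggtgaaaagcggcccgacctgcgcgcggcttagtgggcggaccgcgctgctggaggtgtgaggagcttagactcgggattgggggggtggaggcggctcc
The element of Hspe1 lies 89 bases before the start. Its window shares 285 bases with a window of the neighboring gene Hspd1, which is read from the opposite strand, so a single element is counted for both. In Hsph1 the matches begin 33 bases before and 36 bases after the start, in Hspa5 the match begins 65 bases before, and in Hsp90b1 matches begin 212 and 107 bases before. None of these 4 genes was called between the groups, and of the 10 tested genes with the shorter element 3 were called higher (Cct5, Cdc37 and Dnajb4), against 3 of 19 tested genes whose windows lack it. The median log2 fold change was 0.21 in the former and 0.17 in the latter. Hspa1a, Hspa1b, Hspb1 and Bag3 also carry the shorter element but had too low a summed FPKM to be tested. They are left out of this comparison, while all 19 genes without the element were tested. In Hspa1a and Bag3 every leukemic sample lay above every preleukemic sample, and in Hspa1b and Hspb1 the groups overlapped. No usable window was available for 7 members. Among these were Hsp90ab1 and Hspa8, which were called higher and enter neither side of this comparison. A match describes letters in a window and is no evidence of binding.

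Of the 40 genes, 36 passed the filter and 4 (Hspa1a, Hspa1b, Hspb1 and Bag3) did not. Higher expression in leukemic samples was called for 8 of the 36 (22.2%), where 8.47% of all genes tested were called higher. Lower expression was called for 0 of 36 by limma, where 6.26% of all genes were called lower, and 0 of 36 were lower at an unadjusted p under 0.05. That p was reached by 12 members (33.3%), all higher, and by 34.0% of all genes, of which those higher made 16.5% of all. The log2 fold change was above 0 for 30 of the 36 (83.3%, against 47.9% of all genes), with a median of 0.18 against -0.02 over all genes. Scaling moved members and all genes alike. After rescaling of every sample to the same FPKM sum the median was 0.01 for the members and -0.17 for all genes, and after quantile normalization it was 0.11 and -0.06. The members' median lay 0.19 above that of all genes as reported, and 0.18 and 0.17 above it under these scalings. In 12 of the 36 genes (33.3%) every leukemic sample lay above every preleukemic sample, against 14.9% of all genes, and in 0 every leukemic sample lay below, against 17.1%. The members took 1.17 to 1.24% of the summed FPKM in leukemic samples and 0.990 to 1.16% in preleukemic samples. In bulk RNA, fewer cells of a type and less RNA per cell cannot be told apart.

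**Figure D1:**
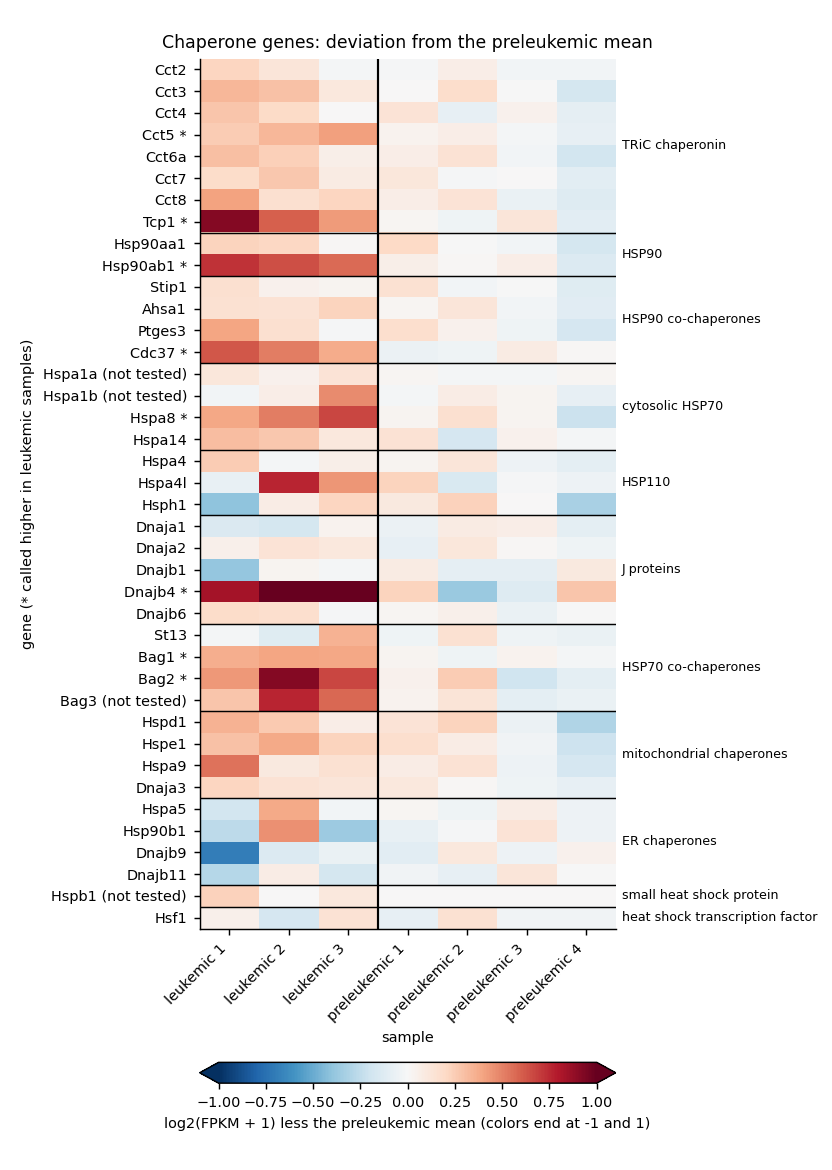
Each cell of the heat map gives log2(FPKM + 1) of a gene (rows, by role) in a sample (columns) less the mean of the 4 preleukemic samples, from blue (lower) to red (higher). The 8 genes called higher (asterisks) are red in all 3 leukemic samples, whereas the endoplasmic reticulum genes are mixed.

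The cytosolic HSP90 genes encode closely similar chaperones, of which Hsp90ab1 is the constitutive and Hsp90aa1 the stress-inducible form. Hsp90ab1 (chr17:45567778-45573261) was the most abundant member, at 1682, 1588 and 1504 FPKM in leukemic replicates 1 to 3 and at 1056, 1027, 1062 and 926 FPKM in preleukemic replicates 1 to 4. Its groups did not overlap, and the log2 fold change was 0.65 ± 0.08 (SE, adjusted p = 0.0082 by limma). Hsp90aa1 was at 158, 157 and 137 FPKM in leukemic and at 157, 136, 133 and 120 FPKM in preleukemic samples. These values overlapped, with a log2 fold change of 0.15 ± 0.11 (adjusted p = 0.36). The ratio of Hsp90aa1 to Hsp90ab1, of FPKM per length, averaged 0.0948 ± 0.0039 over the leukemic samples (SD, n = 3) and 0.134 ± 0.0099 over the preleukemic ones (n = 4). The log2 difference of -0.50 gave p = 0.029 in a two-sided exact permutation test, the smallest value that 35 labelings allow, and adjusted p = 0.086 over the 3 ratios tested.

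Among the HSP90 co-chaperones 1 of 4 was called. Cdc37 (chr9:21139431-21149934), which brings protein kinases to HSP90, was at 165, 153 and 139 FPKM in leukemic and at 103, 104, 114 and 108 FPKM in preleukemic samples. Every leukemic value lay above every preleukemic value, and the log2 fold change was 0.50 ± 0.08 (adjusted p = 0.015 by limma). The other co-chaperones were not called and had log2 fold changes of 0.07 for Stip1, which links HSP70 to HSP90, 0.17 for Ahsa1, which activates the HSP90 ATPase, and 0.18 for Ptges3, the p23 protein that stabilizes the closed state. Of these, Ahsa1 was without overlap, at 129 to 137 FPKM against 108 to 127 FPKM.

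Of the cytosolic HSP70 genes, the constitutive Hspa8 (chr9:40801276-40805202) was the most abundant, at 336, 367 and 408 FPKM in leukemic and at 261, 288, 261 and 222 FPKM in preleukemic samples. The groups did not overlap, with a log2 fold change of 0.52 ± 0.11 (adjusted p = 0.025 by limma). Hspa14, a ribosome-associated HSP70, had a log2 fold change of 0.23 ± 0.10 and was not called (adjusted p = 0.14). The stress-inducible genes were close to the floor. Hspa1a was at 0.126, 0.0745 and 0.143 FPKM in leukemic and at 0.0522, 0.0264, 0.0278 and 0.0565 FPKM in preleukemic samples, which corresponds to 1 to 6 fragments per sample. Hspa1b was at 0.125, 0.198 and 0.592 FPKM in leukemic and at 0.130, 0.210, 0.166 and 0.0843 FPKM in preleukemic samples, or 3 to 25 fragments. Leukemic replicate 3 was highest for both, but only Hspa1a was without overlap. These genes share 62.3% of the 50-base words of the Hspa1b transcript, so their reads cannot be fully parted. Neither was called by limma in a fit without the filter (adjusted p = 0.061 for Hspa1a and 0.39 for Hspa1b). At values this low the added 1 shrinks fold changes, which were 0.098 and 0.17 in log2. The leukemic means were 2.81 and 2.07 times the preleukemic means, so that fit cannot decide whether these genes differed.

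The small heat shock protein Hspb1 was at 0.184 and 0.0873 FPKM in leukemic replicates 1 and 3, or 2 and 1 fragments, and at the floor of 0.01 FPKM in the other 5 samples. In the fit without the filter its adjusted p was 0.19. Hsf1 itself was at 22.3, 19.0 and 23.8 FPKM in leukemic and at 20.2, 23.9, 20.9 and 20.9 FPKM in preleukemic samples. The groups overlapped fully, with a log2 fold change of 0.01 ± 0.10 (adjusted p = 0.96 by limma).

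HSP110 proteins exchange the nucleotide of HSP70, and 0 of the 3 genes was called by limma, with 0 at an unadjusted p under 0.05. Hspa4, the most abundant, was at 95.6, 79.1 and 83.5 FPKM in leukemic and at 81.9, 87.4, 77.3 and 74.6 FPKM in preleukemic samples (log2 fold change 0.10 ± 0.09, adjusted p = 0.49). The groups overlapped. Hsph1, an inducible gene whose promoter is shown above, was at 22.1 to 34.5 FPKM against 23.4 to 34.8 FPKM, a log2 fold change of -0.04. For Hspa4l it was 0.38 ± 0.20 (adjusted p = 0.23), with 5.23, 10.1 and 7.93 FPKM in leukemic replicates 1 to 3.

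The J proteins of cytosol and nucleus were called in 1 of 5 cases. Dnajb4 (chr3:152181580-152210432), a class B J protein, was at 7.69, 17.2 and 12.8 FPKM in leukemic and at 4.70, 2.77, 3.47 and 4.93 FPKM in preleukemic samples. It had the largest difference of the 36 genes tested, a log2 fold change of 1.41 ± 0.27 (adjusted p = 0.021 by limma), and its groups did not overlap. Leukemic replicate 2 was highest and replicate 1 lowest of the leukemic samples, which is also the order of their red cell gene sums. The macrophage, platelet, T and NK cell, plasma cell and B-cell precursor sums had this order too, whereas the neutrophil sums did not. The order therefore does not single out red cells. Preleukemic replicate 1, whose red cell sum of 2851 was the highest of its group, was within the range of the other preleukemic samples for Dnajb4. The part of other cells in this difference was not tested. Dnaja2, the most abundant of the group, was at 71.2, 75.4 and 73.8 FPKM in leukemic and at 64.6, 74.4, 69.3 and 66.5 FPKM in preleukemic samples (log2 fold change 0.10 ± 0.08, adjusted p = 0.39), with overlap. Log2 fold changes of the HSF1-inducible Dnajb1, of Dnaja1 and of Dnajb6 were -0.13, -0.10 and 0.11, and none was called.

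Among the HSP70 co-chaperones, Bag1 and Bag2, exchange factors that carry a BAG domain, were called higher. Bag1 (chr4:40936398-40948294) was at 109, 111 and 110 FPKM in leukemic and at 85.6, 81.7, 86.0 and 83.1 FPKM in preleukemic samples. Its spread was small in both groups, without overlap, and the log2 fold change was 0.38 ± 0.06 (adjusted p = 0.015 by limma). Bag2 (chr1:33745484-33757750), which also inhibits the ubiquitin ligase CHIP, was at 10.8, 15.6 and 12.9 FPKM in leukemic and at 8.02, 9.47, 6.64 and 7.18 FPKM in preleukemic samples. Here too the groups did not overlap, and the log2 fold change was 0.67 ± 0.15 (adjusted p = 0.031). Bag2, Bag3 and Hspa4l followed the same order of leukemic samples as the red cell gene sums and the B-cell precursor gene sums. So did Bag1, and so did Dnaja2, Dnajb1, Hspa5 and Dnajb11, which were not called. Of these, Dnajb1 and Dnajb11 had log2 fold changes below 0, and the part of other cells was not tested.

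Bag3, an inducible BAG protein active in selective autophagy, summed to less than the filter. It was at 1.12, 1.97 and 1.602 FPKM in leukemic and at 0.794, 0.917, 0.634 and 0.674 FPKM in preleukemic samples. Its groups were without overlap, and in the fit without the filter the log2 fold change was 0.54 (adjusted p = 0.051 by limma). St13, which slows the release of ADP from HSP70 and was the most abundant of this group, was at 130, 121 and 167 FPKM in leukemic and at 127, 146, 127 and 125 FPKM in preleukemic samples. Leukemic replicate 3 was highest, the groups overlapped, and the log2 fold change was 0.07 ± 0.12 (adjusted p = 0.71).

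**Figure D2:**
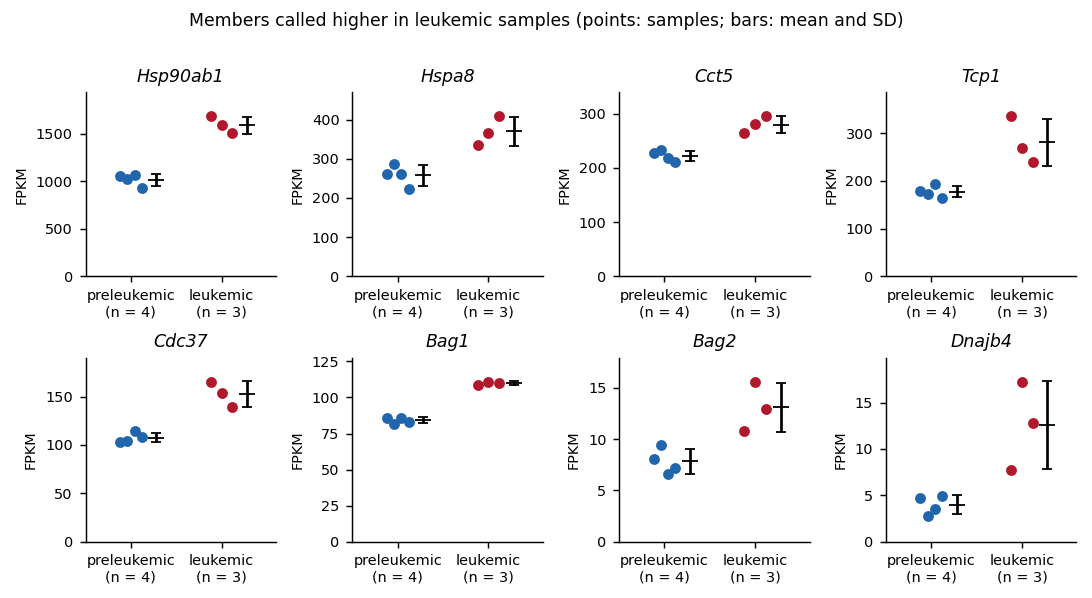
Points give the FPKM of each sample for the 8 genes called higher, with 4 preleukemic samples in blue and 3 leukemic samples in red, and black bars give mean and SD (vertical axes start at 0). The groups do not overlap in any of the 8 panels, and Bag1 has the tightest leukemic values at 109 to 111 FPKM.

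TRiC is built of 8 different subunits in each ring, and all 8 genes were tested. Cct5 and Tcp1 were called higher, and the other 6 were not (adjusted p from 0.11 to 0.36 by limma). The log2 fold change was above 0 for all 8, with a median of 0.22. After rescaling to the same FPKM sum, Cct2 and Cct4 were at -0.06 and -0.01, still above the all-gene median of -0.17. After quantile normalization Cct2 was at -0.0030, where the all-gene median was -0.06. Tcp1 (chr17:12916329-12925067) was at 335, 269 and 239 FPKM in leukemic and at 180, 172, 194 and 165 FPKM in preleukemic samples, with a log2 fold change of 0.65 ± 0.12 (adjusted p = 0.019). Cct5 (chr15:31590800-31601846) was at 265, 280 and 295 FPKM in leukemic and at 227, 232, 219 and 210 FPKM in preleukemic samples, with a log2 fold change of 0.33 ± 0.07 (adjusted p = 0.027). Both were without overlap, but the leukemic samples were in opposite order, with replicate 1 highest for Tcp1 and replicate 3 highest for Cct5. Cct2, the most abundant subunit, was at 306, 287 and 260 FPKM in leukemic and at 262, 276, 258 and 259 FPKM in preleukemic samples (log2 fold change 0.10 ± 0.08, adjusted p = 0.36), with overlap.

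The subunit genes were of similar abundance per length. The FPKM of the most abundant subunit was 1.92 to 2.38 times that of the least abundant across the 7 samples, and the latter was Cct7 in each. Tcp1 relative to its partners did not overlap between the groups, as its FPKM was 1.55, 1.29 and 1.22 times the mean of the other 7 subunits in leukemic samples and 0.976, 0.918, 1.10 and 0.997 times in preleukemic samples. The FPKM of all 8 summed to 1848, 1731 and 1607 in leukemic and to 1469, 1486, 1428 and 1325 in preleukemic samples.

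**Figure D3:**
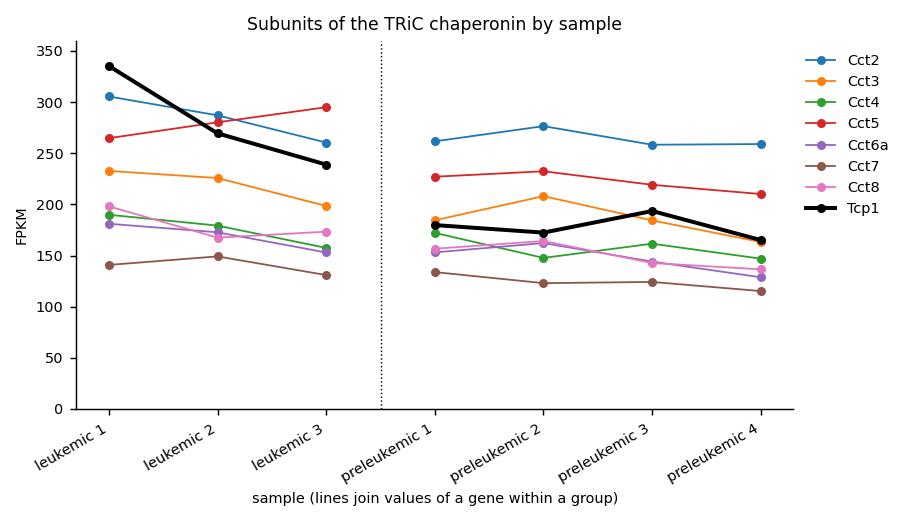
FPKM of the 8 TRiC subunit genes (colors, Tcp1 in black) is plotted for each of the 7 samples, with lines joining the values of a gene within a group. Tcp1 lies at 239 FPKM or more in the leukemic samples and at 194 FPKM or less in the preleukemic samples, while Cct7 is lowest throughout.

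Mitochondrial chaperones were called in 0 of 4 cases by limma, with 1 at an unadjusted p under 0.05, at log2 fold changes of 0.16 to 0.30 and a median of 0.24. Hspa9, the mitochondrial HSP70 and the most abundant of them, was at 189, 138 and 144 FPKM in leukemic and at 136, 143, 125 and 115 FPKM in preleukemic samples (log2 fold change 0.26 ± 0.13, adjusted p = 0.20). Leukemic replicate 1 was highest and the groups overlapped. Hspe1, the lid of the mitochondrial chaperonin, was at 120, 127 and 115 FPKM against 84.5 to 110 FPKM, without overlap, yet its adjusted p was 0.092 at a log2 fold change of 0.30. For Hspd1, the chamber of that chaperonin, the log2 fold change was 0.23, and for the J protein Dnaja3, also without overlap, it was 0.16. The ratio of Hspd1 to Hspe1, which share their promoter region, averaged 1.16 ± 0.092 over the leukemic samples (SD, n = 3) and 1.22 ± 0.090 over the preleukemic ones (n = 4; log2 difference -0.07, exact permutation p = 0.40).

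Chaperones of the endoplasmic reticulum were called in 0 of 4 cases by limma, with 0 at an unadjusted p under 0.05 and a median log2 fold change of -0.09. Hsp90b1, the most abundant, was at 347, 571 and 321 FPKM in leukemic and at 394, 411, 456 and 401 FPKM in preleukemic samples (log2 fold change -0.05 ± 0.19, adjusted p = 0.86). Hspa5, the HSP70 of this compartment, was at 310, 457 and 344 FPKM in leukemic and at 357, 340, 369 and 340 FPKM in preleukemic samples (log2 fold change 0.06). Leukemic replicate 2 held the highest value of all 7 samples for both of these genes, whose promoters carry the stress element, while for Hsp90b1 the other 2 leukemic samples were the lowest of all. The J protein genes Dnajb11 and Dnajb9 had log2 fold changes of -0.13 and -0.30 (adjusted p = 0.41 and 0.22). The ratio of Hspa5 to Hspa8 averaged 1.005 ± 0.21 over the leukemic samples (SD, n = 3) and 1.37 ± 0.14 over the preleukemic ones (n = 4), and the log2 difference was -0.47 (exact permutation p = 0.086, adjusted p = 0.13).

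The members lie on 17 chromosomes, and the median expression of some chromosomes stood apart in leukemic samples, which is described here without a test. A chromosome score was computed as the median deviation of its genes (mean FPKM of at least 5) from the preleukemic mean, less that of all genes. Chromosome 17 scored 0.37, 0.37 and 0.40 in leukemic replicates 1 to 3, chromosome 9 scored 0.33, 0.28 and 0.10, and chromosome 15 scored -0.02, -0.01 and 0.20. Chromosome 14, which holds no member, scored -0.09, -0.10 and 0.15, and the other 16 chromosomes lay between -0.08 and 0.00. Karyotypes of these samples were not analysed here. Preleukemic replicate 3 had scores of 0.17, 0.13 and 0.12 for chromosomes 14, 17 and 9.

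Of the 7 members tested on chromosomes 9, 15 and 17, which were set apart after these scores were seen, 5 were called higher (Hsp90ab1 and Tcp1 on 17, Cdc37 and Hspa8 on 9, Cct5 on 15), where 19.7% of all genes on them were called higher. Of the 29 tested elsewhere, 3 were called (Bag1, Bag2 and Dnajb4), where the share was 6.47%. The members elsewhere had a median log2 fold change of 0.16. For Hsp90ab1 and Tcp1 the log2 fold change was 0.30 above the chromosome 17 median of 0.35, and for Hspa8 and Cdc37 it was 0.30 and 0.28 above the chromosome 9 median of 0.22. The order of leukemic samples for Cdc37, with replicate 1 highest and replicate 3 lowest, was that of the chromosome 9 scores, but Hspa8 had the reverse order. On chromosome 15, replicate 3 was the highest leukemic sample for each of Cct5, St13 and Hsf1, as for the score. With every value taken less its chromosome median in that sample, 5 members were called higher (Cct5, Cdc37, Bag1, Bag2 and Dnajb4). Of all genes, 6.48% were called higher in that fit, against 8.47% as reported. Hsp90ab1, Tcp1 and Hspa8 were not called in it, at log2 fold changes of 0.27, 0.27 and 0.29.

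**Figure D4:**
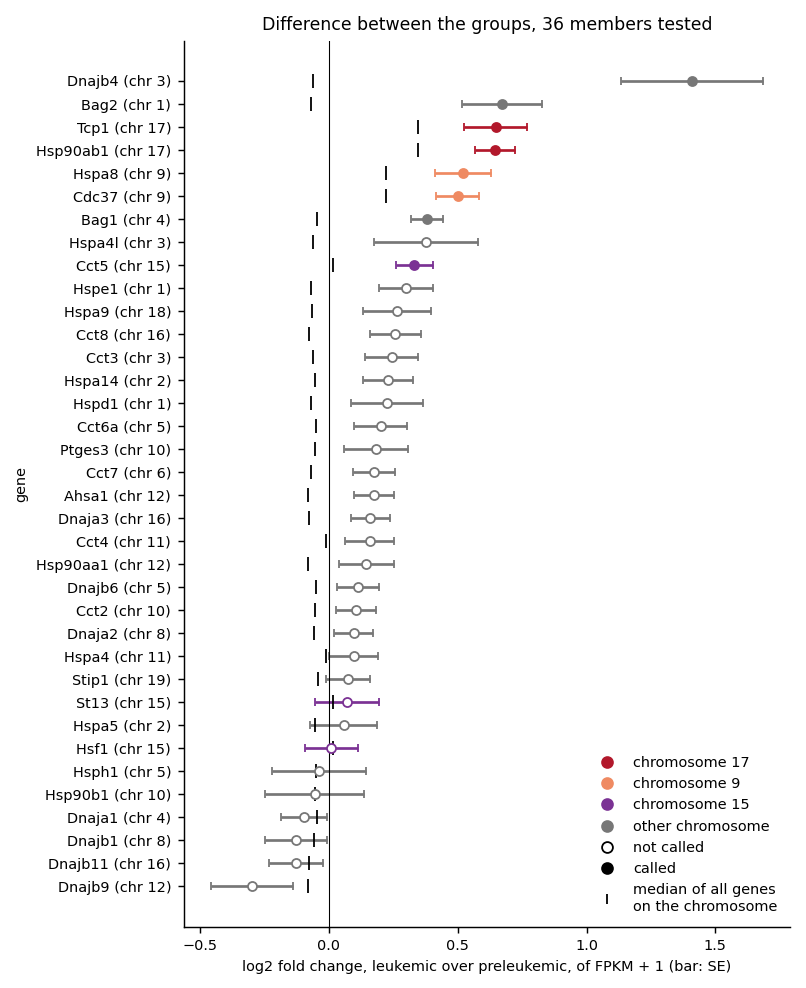
Log2 fold changes of FPKM + 1, leukemic over preleukemic, are given for the 36 genes tested (points, filled where called) with their SE (bars), colored for chromosomes 17, 9 and 15, and the black tick is the median of all genes on the chromosome. Points run from -0.30 for Dnajb9 to 1.41 for Dnajb4, and most lie to the right of their tick.

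Other genes of the same pathways were tested too. Over 6 lists of chaperones, co-factors and stress targets, 118 further genes were tested, of which 9 were called higher (7.63%) and 3 lower (2.54%), beside 8.47% and 6.26% of all genes. Chromosome 17 held 8 of the 118, and 5 of these 8 were called higher, where 33.6% of all genes on it were, against 4 of the 110 elsewhere, where 6.98% of all genes were. The prefoldin and tubulin cofactor list, which works upstream and downstream of TRiC, had 1 of 15 called higher, the prefoldin subunit Pfdn6 on chromosome 17 (log2 fold change 0.55). Other HSP90 and HSP70 co-chaperones had 1 of 28, the ubiquitin ligase gene Stub1 on chromosome 17 (0.58). Mitochondrial protein quality control had 3 of 15, namely the proteases Lonp1 (0.56) and Clpp (0.69) on chromosome 17 and the J protein Hscb on chromosome 5 (0.34).

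Among other HSP70 and J protein genes 3 of 29 were called lower, Dnajc21 (-0.87), Sec63 (-0.49) and Dnajc30 (-0.40), and 2 were called higher, Dnaja4 (1.64) and Dnajb2 (1.44), the last of these named after its values were seen. Endoplasmic reticulum stress targets had 1 of 23 called higher, the disulfide isomerase P4hb (0.35). Other heat shock factors and HSF1 target genes had 2 of 11, Mrpl18 on chromosome 17 (0.61) and Dnaja4, and the factor gene Hsf3 was at the floor in all samples. Immediate early genes, which respond among other things to the handling of cells, had 4 of 14 called higher and 1 lower, among them Dusp1 (1.24), Fos (1.88) and Egr1 (-1.20). Proliferation genes had 1 of 25 called higher, Mki67 (0.74), with 8 at an unadjusted p under 0.05, all 25 log2 fold changes above 0 and a median of 0.48, which exceeds the 0.18 of the chaperone genes. Their FPKM summed to 3588, 2584 and 2027 in leukemic and to 1374 to 2309 in preleukemic samples. The TRiC sums given above had the same order of leukemic samples, but not of preleukemic samples. There, replicate 2 had the lowest proliferation sum (1374) and the highest TRiC sum (1486). Whether the chaperone genes move with proliferation was not tested.

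The calls rest on few samples. Hsp90ab1 was called whichever sample was left out, Cdc37 in all such fits but that without preleukemic replicate 4 (adjusted p = 0.060 by limma), and Bag1 in all but those without preleukemic replicate 3 or 4. Without preleukemic replicate 4 only Hsp90ab1 was called, and without preleukemic replicate 3 only Hsp90ab1 and Cdc37 were. Calls over all genes fell in these fits as well, to 1.02% and 1.90% called higher, from 8.47% as reported. Scaling ended some calls. Hsp90ab1, at a log2 fold change of 0.35, Hspa8 and Cct5 were not called after quantile normalization, and Hspa8 and Cct5 were not called after rescaling to the same FPKM sum.

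**Figure D5:**
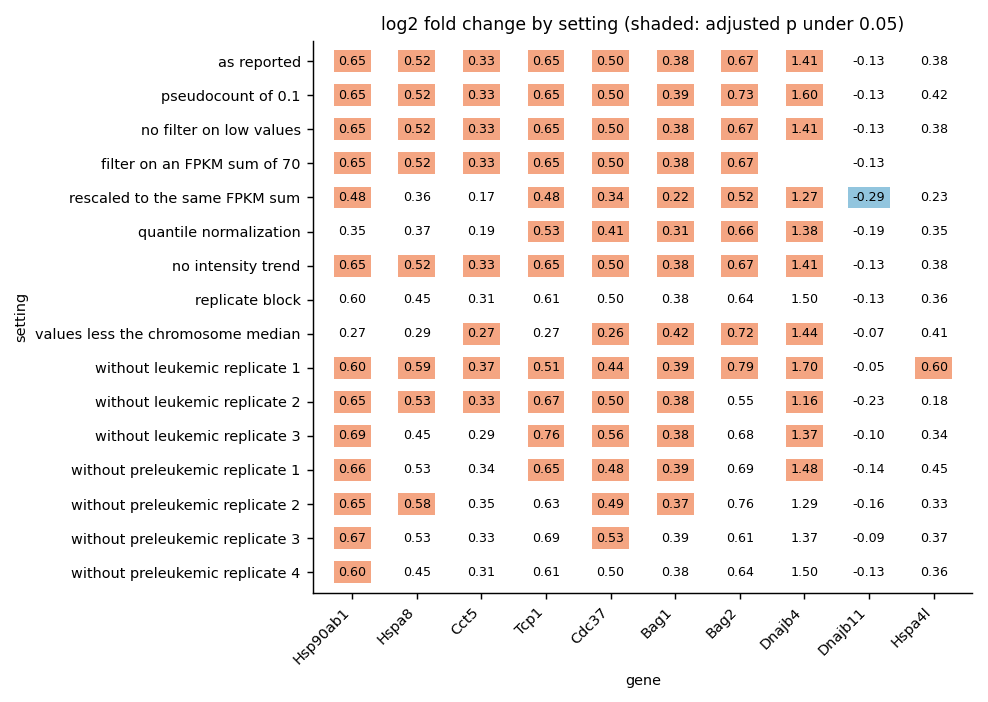
Each cell gives the log2 fold change, leukemic over preleukemic, of a gene (columns) under a setting (rows), shaded where the adjusted p was under 0.05. Hsp90ab1 is shaded in each of the 7 fits that leave out a sample, whereas Cct5 and Bag2 lose their shading in 5 and 6 of them.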

How the data were processed

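RNA-seq was made by the authors from stranded mRNA libraries. They deposited 1 FPKM value per gene and sample, with a floor of 0.01, on mm10 (GRCm38). The submitters' processing notes name STAR 2.5.0b, Cufflinks 2.2.1, bedtools 2.17.0, Bowtie and DESeq2, with no role or order. FPKM are not counts, so a count model was not used. Chaperone genes such as Hspa8 and Hspe1 have processed pseudogenes, and how shared reads were assigned is not given in the sources used here.

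Differences were tested with limma 3.58.1 in R 4.3.3 (lmFit, eBayes with an intensity trend) on log2(FPKM + 1), without covariates, over the 10541 genes that reached a summed FPKM of 10. The study's methods apply that number to counts, so the filter on FPKM is a different and stricter one; the adjusted p threshold of 0.05 is theirs. The added 1 shrinks the fold changes of genes with low values. On simulated data, 137 of 200 genes were recovered at a log2 change of 1 (12 false calls) and 0 calls were made with no gene changed. Noise was drawn for each gene on its own, without shifts shared between genes. Of the called members only Dnajb4 had a log2 fold change above 1, so these counts may not hold for the members. Tables were handled in Python 3.11.15 with pandas 2.3.3 and numpy 2.4.6. Depth was inferred from steps in low values of 2243 single-transcript genes of more than 1500 bases, assuming fragments of 200 bases; 77.1 to 82.8% of the low values were whole to within 0.1, and no count test was run.

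Coordinates of genes are those of RefSeq on GRCm38.p6, whose chromosome matched the deposited table for all 40 members. Full values are given for members called, for the most abundant member of each of the 11 role groups and for Hsf1. At most 3 called genes of each other list are named, except for other HSP70 and J protein genes, where all called genes are. Members, lists and tests were chosen with earlier results of these data known.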

Additional observations from a re-analysis of the deposited data

Results flagged for a closer look

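In preleukemic samples, St13 was at 146 FPKM in replicate 2 and at 125 to 127 FPKM in the other 3, a gap of 0.894 of the group's range, which is above Dixon's 95% critical value for 4 samples. Of 39 genes examined this was the only one past that value, and chance passes about 1 in 20.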

How the results depend on the processing

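Higher expression was called for 8 members as reported, and for 5 after quantile normalization, for 5 with values less the chromosome median (an alternative added after seeing the data) and for 1 to 9 when a sample was left out (5 without leukemic replicate 3 or preleukemic replicate 1, 4 without preleukemic replicate 2, 2 without preleukemic replicate 3 and 1 without preleukemic replicate 4). Lower expression was called for 0 members as reported and for 1, Dnajb11, after rescaling to the same FPKM sum, where all genes moved to 683 higher and 2236 lower, from 893 and 660. Of all genes, 8.47% were called higher as reported, 7.15% after quantile normalization and 6.48% less the chromosome median. This share was 8.17, 8.25 and 6.75% without leukemic replicates 1 to 3. It was 5.80, 2.80, 1.90 and 1.02% without preleukemic replicates 1 to 4. Without preleukemic replicate 4 the calls over all genes fell to 107 higher and 42 lower. In the fits with each sample left out Hsp90ab1 remained called, and the ratio of Hsp90aa1 to Hsp90ab1 ran from -0.53 to -0.45, where the smaller design allows no p under 0.05. The causes of these changes were not tested.

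With the replicate block, 0 members and 0 of all genes were called (8 members and 2429 genes at an unadjusted p under 0.05). The preleukemic sample without a partner adds nothing to that fit. Deviations of same-numbered samples correlated at 0.03, 0.05 and -0.09, and nothing in the labels ties the numbers. Whether same-numbered samples share more than a number is not known.

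Some log2 fold changes near 0 turned sign, none of them called. After rescaling to the same FPKM sum, which moved the median of all genes from -0.02 to -0.17, they were -0.060 for Cct2, -0.0067 for Cct4, -0.019 for Hsp90aa1, -0.090 for Stip1, -0.067 for Hspa4, -0.066 for Dnaja2, -0.047 for Dnajb6, -0.093 for St13, -0.11 for Hspa5 and -0.15 for Hsf1. After quantile normalization they were -0.0030 for Cct2, -0.0011 for St13, -0.12 for Hspa5 and -0.0017 for Hsf1, which was at -0.0025 with the replicate block and at -0.053 less the chromosome median. With each sample left out, Hsph1 ran from -0.17 to 0.14, Dnajb1 from -0.20 to 0.0026, St13 from -0.068 to 0.17, Hspa5 from -0.10 to 0.18, Hsp90b1 from -0.31 to 0.10 and Hsf1 from -0.057 to 0.10. A pseudocount of 0.1, no filter and no intensity trend left 8 members called, and a filter on a sum of 70 left 7. In these fits 8.28, 6.68, 7.94 and 7.75% of all genes tested were called higher. With 3 and 4 samples, small differences of low genes stay within the spread.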
